A study of Homo sapiens with 12 samples.

Results

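The genes described here are 30 human genes, chosen by name from a list of direct targets of the transcription factor p53 that includes MDM2, together with MDM4. All 30 symbols were found among the 23368 symbols of the count tables, and 27 held enough reads to be tested at each time. The messenger RNA came from SUDHL6, a human lymphoma line (diffuse large B-cell, germinal centre type) kept in culture. There were 4 groups of 3 libraries: 200 nM GSK591 for 96 h, vehicle (0.01% DMSO) for 96 h, 200 nM GSK591 for 24 h and vehicle for 24 h. GSK591 is a small-molecule inhibitor of PRMT5, an enzyme that methylates arginine residues in histones and in proteins of the splicing machinery. All groups were one cell line in one culture medium, and no assay of protein was analysed here.

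As background, p53 is held low in unstressed cells by MDM2, a ubiquitin ligase that marks it for degradation, and by MDM4, a relative of MDM2 that masks the activating region of p53. When damage or other stress releases p53, it binds paired decamer sites and switches on genes for cell cycle arrest, apoptosis, DNA repair and metabolism, among them MDM2 itself, which closes a negative feedback loop. In germinal centre B cells, which break and mutate their own antibody genes, the pathway is known to be held down by BCL6. MDM4 transcripts are also spliced to a short form that lacks an exon and yields little stable protein. Reads counted per gene do not separate that form from the full-length one.

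The libraries held 48.5 to 64.4 M counted reads (M, mega), except vehicle library 1 at 96 h, which held 547.9 M. All 8 B-cell markers stood at 154 CPM (read counts per mega-read of the library, after TMM scaling) or more in every library. Marker sums of T cells reached 0.222 CPM, of fibroblasts 1.29 CPM and of epithelial cells 0.222 CPM, with CD2, CD3D and DCN at 0 throughout. The biological coefficient of variation was 8.19% at 96 h and 2.35% at 24 h, so an effect of a given size was harder to detect at 96 h. The 96 h libraries numbered 2 stood apart in genes of S phase. On the log2 scale and relative to the vehicle mean of 96 h, 30 such genes averaged -0.73, -0.40 and -0.63 in GSK591 libraries 1, 2 and 3, and -0.07, 0.15 and -0.08 in the vehicle libraries. At 96 h, 25 of these 30 genes fell and 1 rose. At 24 h, 13 fell. Marker sums of myeloid cells moved too, from a low level: 0.769 to 1.41 CPM in the 96 h GSK591 libraries and 0.216 to 0.532 CPM in the 96 h vehicle libraries. The part of either shift in the changes described below was not tested, and the counts at 96 h are also given without the libraries numbered 2. The labels do not say whether a group's 3 libraries stem from 3 cultures, and the p-values therefore measure a spread that may be only technical. In bulk RNA, fewer cells in a given state and less RNA per cell cannot be told apart.

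After 96 h of GSK591, 5 of the 27 tested genes rose and 6 fell. The risers were MDM2, MDM4, the nucleotide supply gene RRM2B, the stress gene TP53INP1 and the RNA-binding gene ZMAT3. The fallers were FDXR, FBXO22, BTG2, GADD45A, RPS27L and FAS. These 11 genes make up 40.7% of the 27, and edgeR's quasi-likelihood test called 40.2% of the 13514 genes tested at that time (20.7% higher, 19.6% lower), so the share called was close to that of the transcriptome. The median log2 fold change of GSK591 over vehicle was -0.03 for the 27 genes and 0.00 for all genes. The 6 libraries separated without overlap for 14 of the 27 genes, 7 upward and 7 downward, against 54.9% of all genes (26.9% upward, 28% downward). Leaving out GSK591 library 2 brought the number that rose to 8, and leaving out both 96 h libraries numbered 2 brought it to 10, with 8 that fell. The calls over all genes grew as well, from 5437 of 13514 to 7485 of 13618 and 8201 of 13566.

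After 24 h, 4 of the 27 genes rose (MDM4, MDM2, ZMAT3 and CCNG1) and 6 fell (XPC, GADD45A, PMAIP1, TRIAP1, BTG2 and POLH). That is 37.0% of the 27, beside 14.7% of the 13173 genes tested (7.44% higher, 7.3% lower). The effects were small: the log2 fold changes of the 27 genes ran from -0.27 to 0.20, with a median of -0.04, against 0.00 for all genes. The libraries separated without overlap for 9 of the 27 genes, 3 upward and 6 downward, against 31.8% of all genes (15.6% upward, 16.3% downward). The counts rested on single libraries. Only 2 rose without vehicle library 1, vehicle library 2, GSK591 library 1 or GSK591 library 3, and 7 rose without vehicle library 3. Only 1 fell without vehicle library 2, GSK591 library 1 or GSK591 library 3. There the calls over all genes dropped as well, to 1068, 980 and 1041 in place of 1941. MDM4, ZMAT3 and XPC passed whichever single library was left out. MDM2, MDM4 and ZMAT3 rose at both times, BTG2 and GADD45A fell at both, and 11 genes were called at neither. The share of all genes called alike at both times was not counted, so these numbers are not set against the transcriptome.

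**Figure D1:**
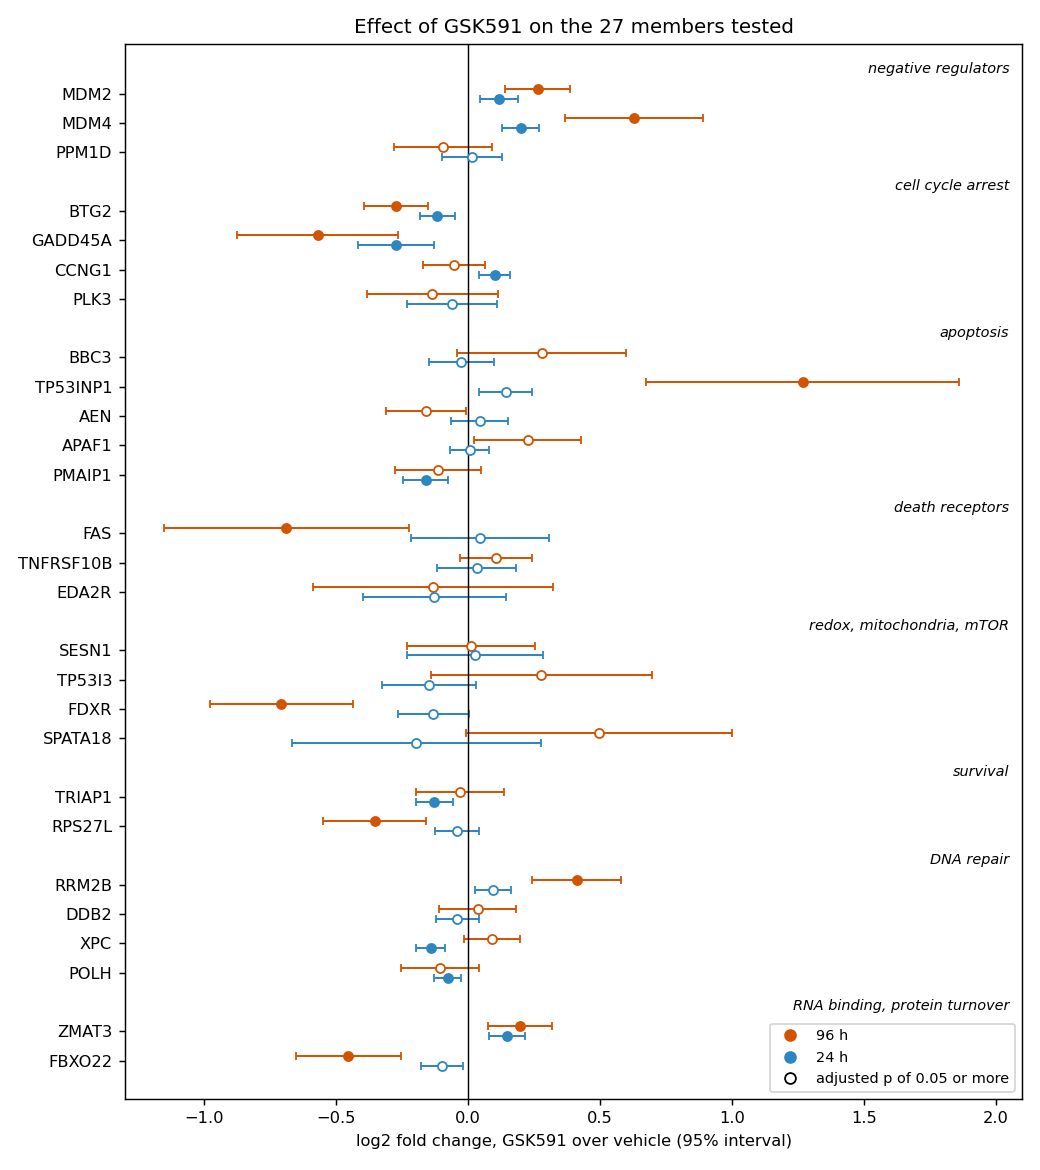
Log2 fold change of GSK591 over vehicle for the 27 tested genes, grouped by role, at 96 h (orange) and 24 h (blue), with 95% intervals from edgeR (n = 3 libraries a group). Filled points have an adjusted p under 0.05. TP53INP1 at 96 h has the highest value, 1.27, and the 24 h points lie between -0.27 and 0.20.

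The promoters of these genes were searched for p53 sites, the sequence feature that the list is built on. RefSeq promoter windows of 300 bases (250 before and 50 after the start of a transcript, build GRCh38.p14) were found for 24 of the 30 genes. Both strands were searched for the consensus decamer bound by a p53 dimer, and a full site was taken as 2 decamers at most 13 bases apart. At least 1 exact decamer lay in the windows of 7 of the 24 genes (29.2%), against 8.06% of all 27305 genes with a window. A pair with at most 2 mismatches in all lay in 5 of the 24 (20.8%), against 3.62% of all genes. An exact pair lay in 1 gene, DDB2, against 0.0366% of all genes. Since the genes were listed for being p53 targets, these shares describe the list and test nothing. The 5 pairs follow, 5′ to 3′ on the strand given, with the decamers in capitals, because they let a reader set a site beside the response of its gene.
MDM2, chr12:68808918-68808947, plus strand: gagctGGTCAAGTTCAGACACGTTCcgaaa
DDB2, chr11:47214975-47215003, plus strand: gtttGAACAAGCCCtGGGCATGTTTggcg
FAS, chr10:88991304-88991333, plus strand: ctcctGGACAAGCCCTGACAAGCCAagcca
AEN, chr15:88621301-88621330, plus strand: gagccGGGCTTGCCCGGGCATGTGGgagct
FDXR, chr17:74872996-74873025, minus strand: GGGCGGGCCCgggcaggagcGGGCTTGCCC
The DDB2 pair has 0 mismatches and a spacer of 1 base, and the other pairs have 2 mismatches each, without a spacer except in FDXR, where it is 10 bases. The first decamer begins at position -122 from the start of FAS, -34 from that of AEN, -31 from that of FDXR and 6 bases after that of DDB2. The MDM2 pair falls in the windows of 2 transcript starts, at -94 and -101. The 5 genes did not respond alike at 96 h: MDM2 rose, FAS and FDXR fell, and DDB2 and AEN were not called. A match is a run of letters, not a measured binding site, and no binding data were analysed here.

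Of the 3 genes grouped here as negative regulators of p53, MDM2 and MDM4 rose at both times and PPM1D was called at neither. With the libraries of a group in the order of their replicate number, 1, 2 and 3, here and below, MDM4 measured 138, 171 and 122 CPM in cells treated with GSK591 for 96 h, against 97.6, 84.8 and 96.4 CPM in vehicle cells. Every treated library lay above every vehicle library, and treated library 2, with the highest MDM4, was also the treated library with the least reduced S-phase genes. The log2 fold change was 0.63 ± 0.12 (SE), 1.54-fold, with an adjusted p of 0.00409 by edgeR's quasi-likelihood test. MDM2 measured 130.3, 141 and 127 CPM in GSK591 cells and 112, 111 and 109 CPM in vehicle cells at 96 h. The vehicle libraries were within 3 CPM of each other and all treated ones were higher, by 0.26 ± 0.05 on the log2 scale (adjusted p = 0.00632). At 24 h MDM4 already stood at 108, 99.7 and 103 CPM with GSK591, against 93.8, 85.7 and 91.7 CPM with vehicle (log2 fold change 0.20 ± 0.03, adjusted p = 0.000642). That separation was again complete. MDM2 measured 146, 142 and 154 CPM with GSK591 and 132, 131 and 144 CPM with vehicle at 24 h, where one treated library lay below the highest vehicle library. The MDM2 effect at 24 h, 0.12 ± 0.03 (adjusted p = 0.0267), lost its call without vehicle library 1 (adjusted p = 0.116), vehicle library 2 (0.128), GSK591 library 1 (0.0569) or GSK591 library 3 (0.164). The MDM2 and MDM4 calls at 96 h held in all 15 alternative fits, the one without both libraries numbered 2 included. PPM1D, the phosphatase that removes activating phosphates from p53 and ATM, was not called, with log2 fold changes of -0.10 ± 0.08 at 96 h (95% interval -0.28 to 0.09) and 0.01 ± 0.05 at 24 h (-0.10 to 0.13).

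**Figure D2:**
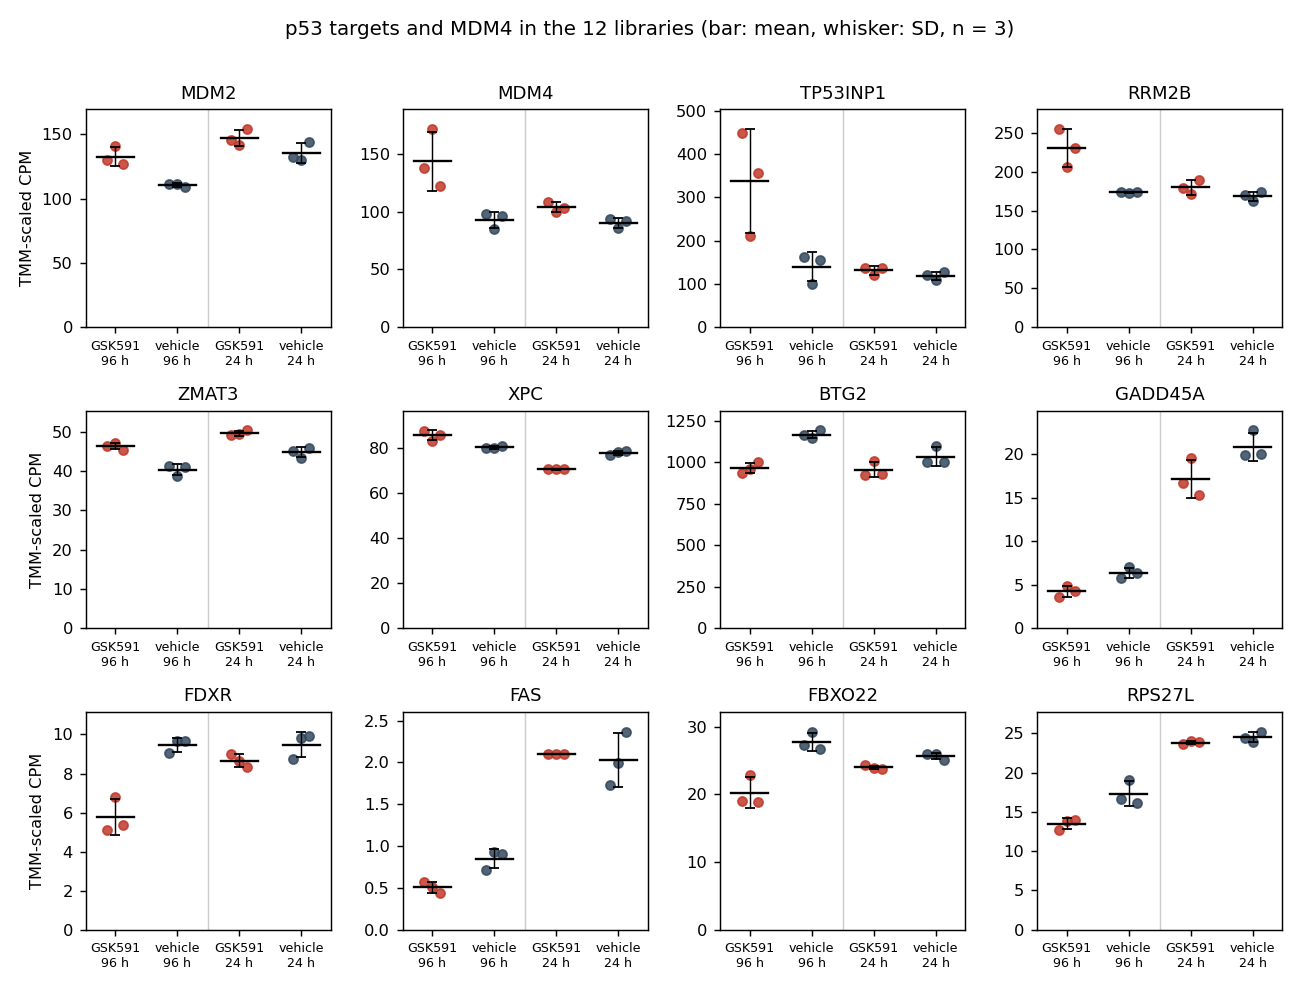
TMM-scaled CPM of 12 of the genes in each library (points), with group means (bars) and SD (whiskers, n = 3), GSK591 left of vehicle at 96 h and then at 24 h. CPM are scaled within each time. All treated MDM4 libraries lie above the vehicle libraries of their time, and TP53INP1 spans 210 to 447 CPM in the treated 96 h libraries. GADD45A and FAS lie far lower at 96 h than at 24 h in both arms, as they also do with all 12 libraries scaled together.

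Of the genes of cell cycle arrest, BTG2 and GADD45A fell at both times. BTG2, an antiproliferative protein that promotes shortening of mRNA tails, measured 939.5, 960.2 and 1000.2 CPM in GSK591 cells at 96 h, against 1165, 1147 and 1193 CPM in vehicle cells. It had no overlap between groups and fell by 0.27 ± 0.05 on the log2 scale (adjusted p = 0.00525). GADD45A, a small stress protein that slows the cell cycle and aids repair, measured 3.59, 4.86 and 4.29 CPM with GSK591 and 5.78, 7.01 and 6.30 CPM with vehicle at 96 h. Here too all treated libraries lay below all vehicle ones (log2 fold change -0.57 ± 0.13, adjusted p = 0.0108). At 24 h BTG2 measured 927, 1008 and 934 CPM with GSK591 and 1002, 1101 and 1006 CPM with vehicle. Its groups overlapped, because library 2 was the highest library in each group, and the log2 fold change was -0.12 ± 0.03 (adjusted p = 0.0209). GADD45A stood at 16.7, 19.6 and 15.3 CPM with GSK591 and 19.9, 22.7 and 19.9 CPM with vehicle at 24 h, without overlap (log2 fold change -0.27 ± 0.07, adjusted p = 0.0114). Both 24 h calls were lost without vehicle library 2 (adjusted p = 0.135 for BTG2 and 0.0642 for GADD45A), GSK591 library 1 (0.112 and 0.0508) or GSK591 library 3 (0.107 and 0.0811). CCNG1, cyclin G1, which recruits a phosphatase to MDM2, rose at 24 h, with 176, 171 and 182 CPM in GSK591 cells and 162, 159.7 and 170.1 CPM in vehicle cells (log2 fold change 0.10 ± 0.03, adjusted p = 0.0197). This call was lost without vehicle library 1 (adjusted p = 0.0768), vehicle library 2 (0.0978), GSK591 library 1 (0.0595) or GSK591 library 3 (0.121). At 96 h CCNG1 had a log2 fold change of -0.05 ± 0.05 (adjusted p = 0.43). PLK3, a kinase of the stress response, was called at neither time (-0.13 ± 0.11 at 96 h and -0.06 ± 0.08 at 24 h), and its relative PLK2 had 1 read in all 12 libraries together.

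Among the genes of apoptosis, TP53INP1 had the largest change of the 27, in either direction, at 96 h. TP53INP1, a nuclear protein that binds kinases of p53 and takes part in autophagy, measured 447, 209.8 and 355 CPM in GSK591 cells, against 163, 101 and 156 CPM in vehicle cells. Library 2 was the lowest in both groups, and the lowest treated library was still above the highest vehicle library. The log2 fold change was 1.27 ± 0.26, 2.41-fold (adjusted p = 0.00635), and the call held in all 15 alternative fits. At 24 h the gene stood at 131 ± 10.0 CPM with GSK591 and 119 ± 9.46 CPM with vehicle (mean ± SD, n = 3 each) and just missed the threshold, with a log2 fold change of 0.14 ± 0.05 and an adjusted p of 0.0514. It passed there without vehicle library 3 (adjusted p = 0.0119) or GSK591 library 2 (0.00027). PMAIP1, which encodes the BH3-only protein NOXA, fell at 24 h, with 55.3, 62.4 and 56.7 CPM in GSK591 cells and 64.9, 68.3 and 61.9 CPM in vehicle cells. The groups overlapped in 1 treated library, the log2 fold change was -0.16 ± 0.04 (adjusted p = 0.0119), and the call was lost without vehicle library 2 (0.0704), GSK591 library 1 (0.0831) or GSK591 library 3 (0.0662). At 96 h PMAIP1 had -0.11 ± 0.07 (adjusted p = 0.234).

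The other apoptosis genes were not called with all libraries in, and for several the call turned on 1 library. BBC3, which encodes the BH3-only protein PUMA, measured 8.94, 6.22 and 8.79 CPM in GSK591 cells and 6.26, 6.71 and 6.77 CPM in vehicle cells at 96 h. Treated library 2 lay below all vehicle libraries and the other treated libraries above them, and the adjusted p was 0.142 with it and 0.00232 without it (log2 fold change 0.28 ± 0.14 with it). APAF1, the scaffold of the apoptosome, had complete separation at 96 h, with 51.1, 61.8 and 47.7 CPM in GSK591 cells and 46.5, 45.0 and 45.7 CPM in vehicle cells. Its log2 fold change was 0.23 ± 0.09 (adjusted p = 0.0727, and 0.0383 without GSK591 library 3). AEN, a nuclease that promotes apoptosis, lay lower in all treated libraries at 96 h, with 45.5, 52.7 and 51.4 CPM in GSK591 cells and 53.4, 57.8 and 56.2 CPM in vehicle cells. Its log2 fold change was -0.16 ± 0.07 (adjusted p = 0.0889, and 0.0212 without GSK591 library 2). At 24 h the adjusted p of BBC3, APAF1 and AEN were 0.816, 0.938 and 0.615, and AEN passed there without vehicle library 3 (0.0264). PHLDA3, a repressor of the kinase AKT, was too low to test, with at most 8 reads in a library.

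Of the 3 death receptors, FAS fell at 96 h. FAS, the receptor of FAS ligand, by which T cells can kill germinal centre B cells, was scarce in this line: 0.575, 0.508 and 0.444 CPM in GSK591 cells and 0.719, 0.925 and 0.901 CPM in vehicle cells at 96 h. The groups did not overlap, and the log2 fold change was -0.69 ± 0.20 (adjusted p = 0.0265). The call was lost without vehicle library 2 (adjusted p = 0.0732), vehicle library 3 (0.0775) or GSK591 library 3 (0.0881). At 24 h FAS measured 2.1 ± 0.00499 CPM with GSK591 and 2.03 ± 0.322 CPM with vehicle (mean ± SD, n = 3 each; adjusted p = 0.848). TNFRSF10B, the TRAIL receptor DR5, had log2 fold changes of 0.11 ± 0.06 at 96 h (adjusted p = 0.185) and 0.03 ± 0.07 at 24 h. EDA2R, a receptor of ectodysplasin, had -0.13 ± 0.20 at 96 h and -0.13 ± 0.13 at 24 h. Neither was called, and the 95% intervals at 96 h, -0.03 to 0.24 for TNFRSF10B and -0.59 to 0.32 for EDA2R, leave room for changes in both directions.

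Among the genes of mitochondria, redox balance and mTOR control, FDXR fell at 96 h with the smallest adjusted p of the 27. FDXR, ferredoxin reductase, passes electrons to mitochondrial enzymes of steroid and iron-sulphur cluster synthesis. It measured 5.12, 6.80 and 5.37 CPM in GSK591 cells and 9.06, 9.64 and 9.66 CPM in vehicle cells at 96 h, without overlap. The log2 fold change was -0.71 ± 0.12 (adjusted p = 0.00299), kept in 15 of 15 alternatives. At 24 h it was -0.13 ± 0.06 (adjusted p = 0.189). SPATA18, a protein of mitochondrial quality control also called Mieap, measured 2.06, 1.14 and 1.68 CPM in GSK591 cells and 1.20, 0.964 and 1.23 CPM in vehicle cells at 96 h. The spread among treated libraries was wide, with library 2 within the vehicle values, and the log2 fold change of 0.50 ± 0.22 was not called (adjusted p = 0.105, and 0.00686 without GSK591 library 2). TP53I3, a quinone oxidoreductase, followed the same pattern, with 7.22, 4.63 and 7.10 CPM in GSK591 cells and 5.24, 4.33 and 6.02 CPM in vehicle cells (log2 fold change 0.28 ± 0.18, adjusted p = 0.256, and 0.0137 without GSK591 library 2). SESN1, sestrin 1, which restrains mTORC1, had log2 fold changes of 0.01 ± 0.11 at 96 h (95% interval -0.23 to 0.25) and 0.03 ± 0.12 at 24 h.

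Of the genes held to favour survival, RPS27L fell at 96 h and TRIAP1 at 24 h. RPS27L, a close relative of the ribosomal protein RPS27, measured 12.7, 13.8 and 14.0 CPM in GSK591 cells and 16.7, 19.1 and 16.1 CPM in vehicle cells at 96 h, without overlap (log2 fold change -0.35 ± 0.09, adjusted p = 0.0123). How reads shared with RPS27 or with pseudogenes were counted is not stated, which leaves the level of RPS27L uncertain. TRIAP1, an inhibitor of apoptosome assembly, measured 52.3, 56.3 and 51.7 CPM with GSK591 and 58.0, 60.0 and 57.4 CPM with vehicle at 24 h, without overlap (log2 fold change -0.13 ± 0.03, adjusted p = 0.017). Without vehicle library 2, GSK591 library 1 or GSK591 library 3 its adjusted p was 0.0833, 0.0889 or 0.0965. The effects at the other time were -0.03 ± 0.07 for TRIAP1 at 96 h (adjusted p = 0.769) and -0.04 ± 0.04 for RPS27L at 24 h (adjusted p = 0.52).

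The DNA repair genes split. RRM2B, the p53-inducible small subunit of ribonucleotide reductase, which supplies deoxynucleotides outside S phase, rose at 96 h. It measured 255, 207 and 231 CPM in GSK591 cells and 174, 173 and 173 CPM in vehicle cells. The vehicle libraries were nearly equal and every treated library was higher (log2 fold change 0.41 ± 0.07, adjusted p = 0.00373, held in all 15 alternatives). At 24 h its log2 fold change was 0.09 ± 0.03 (adjusted p = 0.0545), and it passed without vehicle library 3 (0.0324) or GSK591 library 2 (0.0031). XPC, the damage sensor of global nucleotide excision repair, fell at 24 h, with 70.7, 70.9 and 70.6 CPM in GSK591 cells and 77.1, 78.5 and 78.6 CPM in vehicle cells. The spread within each group was under 2 CPM, and the log2 fold change was -0.14 ± 0.03 (adjusted p = 0.0014). At 96 h the treated XPC libraries lay on the other side, with 87.7, 83.3 and 86.1 CPM in GSK591 cells and 80.3, 80.0 and 81.2 CPM in vehicle cells, and the effect was not called (log2 fold change 0.09 ± 0.05, adjusted p = 0.149, and 0.0284 without both libraries numbered 2). POLH, a polymerase that copies past ultraviolet lesions, measured 135, 135 and 137 CPM with GSK591 and 146, 143 and 140.1 CPM with vehicle at 24 h. It did not overlap, but its call (log2 fold change -0.08 ± 0.02, adjusted p = 0.0397) was lost without vehicle library 1 (0.142), vehicle library 2 (0.11), GSK591 library 1 (0.141), GSK591 library 2 (0.0711) or GSK591 library 3 (0.0747). DDB2, which hands lesions to XPC, was called at neither time, with 0.04 ± 0.07 at 96 h (95% interval -0.11 to 0.18) and -0.04 ± 0.04 at 24 h (-0.12 to 0.04).

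ZMAT3, a zinc finger protein that binds RNA and takes part in splicing and mRNA decay, rose at both times. At 96 h it measured 46.4, 47.1 and 45.5 CPM in GSK591 cells and 41.3, 38.8 and 41.1 CPM in vehicle cells, without overlap (log2 fold change 0.20 ± 0.05, adjusted p = 0.0188). At 24 h it measured 49.1, 49.5 and 50.3 CPM with GSK591 and 45.0, 43.4 and 46.0 CPM with vehicle, again without overlap (log2 fold change 0.15 ± 0.03, adjusted p = 0.00416). The 96 h call was lost without vehicle library 1 (adjusted p = 0.0593), vehicle library 2 (0.0575), vehicle library 3 (0.0618) or GSK591 library 1 (0.0625), while the 24 h call survived each omission. FBXO22, a subunit of a ubiquitin ligase, fell at 96 h, with 19.0, 22.9 and 18.8 CPM in GSK591 cells and 27.3, 29.3 and 26.6 CPM in vehicle cells (log2 fold change -0.45 ± 0.09, adjusted p = 0.00506). Its libraries did not overlap at either time, and the 24 h effect was -0.10 ± 0.04 (adjusted p = 0.0928). GDF15, a secreted stress cytokine, had 3 to 54 reads in a library and was not tested.

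The effect of GSK591 changed between the times for 8 of the 27 genes (29.6%), beside 24.1% of the 13665 genes in the fit of all 12 libraries (11% more positive and 13.2% more negative at 96 h). It was more positive at 96 h for TP53INP1, MDM4, RRM2B and XPC, and more negative for FAS, FDXR, FBXO22 and RPS27L. For XPC, the 96 h effect of 0.09 and the 24 h effect of -0.14 differed by 0.22 (adjusted p = 0.00801), so the sign of the estimate changed. FDXR differed by -0.59 (adjusted p = 0.00763) and FBXO22 by -0.37 (adjusted p = 0.0123). The differences of these 3 genes were called in all 20 alternative fits. The other 5 were less secure. TP53INP1 differed by 1.11 (adjusted p = 0.0189), and this was lost without 24 h vehicle library 3 (0.052) or 24 h GSK591 library 2 (0.0519). MDM4 differed by 0.41 (adjusted p = 0.0332), lost without 24 h vehicle library 1 (0.0802) or 3 (0.0821), 24 h GSK591 library 2 (0.0835) or 3 (0.0682), or 96 h vehicle library 2 (0.0934). RPS27L differed by -0.32 (adjusted p = 0.0215), lost without 24 h vehicle library 2 (0.051), 24 h GSK591 library 2 (0.0521) or 96 h GSK591 library 1 (0.0507). TP53INP1, MDM4, RRM2B, FDXR, FBXO22 and RPS27L carried the same sign at both times, with the larger estimate at 96 h. The FAS estimate changed sign, from 0.05 at 24 h, where it was not called, to -0.69 at 96 h. MDM2 also kept its sign, with 0.26 at 96 h and 0.12 at 24 h. Its difference of 0.13 was not called (adjusted p = 0.178). RRM2B differed by 0.30 (adjusted p = 0.0292), which was lost without any 1 of 8 libraries, namely vehicle libraries 1 (0.0637) and 3 (0.0783) and GSK591 libraries 1 (0.0604) and 2 (0.0822) at 24 h, and vehicle libraries 2 (0.0564) and 3 (0.0521) and GSK591 libraries 1 (0.0605) and 3 (0.0523) at 96 h. FAS differed by -0.73 (adjusted p = 0.0378), with adjusted p of 0.0505 to 0.0847 in the 9 fits without 1 library that lost it, namely vehicle libraries 1 and 2 and GSK591 libraries 1, 2 and 3 at 24 h, and vehicle libraries 2 and 3 and GSK591 libraries 2 and 3 at 96 h. The number of more positive genes rested on single libraries as well: it was 8 without 96 h GSK591 library 2, 2 without 24 h vehicle library 1 or 96 h vehicle library 2, and 1 without 24 h vehicle library 3 or 24 h GSK591 library 2. Leaving out 24 h GSK591 library 2 also brought the more negative ones to 2. Over all genes, 5712 were called without 96 h GSK591 library 2 and 1991 without 24 h GSK591 library 2, in place of 3298.

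Apart from the drug, 7 of the 27 genes stood much lower at 96 h than at 24 h, and they did so in both arms. This comparison was added after the values were seen and is given without a test. The times were deposited as separate tables, so that time in culture and any batch of sequencing cannot be told apart. After scaling all 12 libraries together, AEN, BBC3, FAS, GADD45A, PLK3, SESN1 and TRIAP1 had a 96 h mean under 0.5 of the 24 h mean, in GSK591 cells and in vehicle cells alike. These are 25.9% of the 27 genes, beside 2.28% of all 13665 genes in the GSK591 arm and 0.6% in the vehicle arm. In vehicle cells the ratio was smallest for BBC3, which stood at 7.75 ± 1.55 CPM in GSK591 cells at 96 h against 24.6 ± 2.11 CPM at 24 h, and 6.45 ± 0.272 CPM in vehicle cells at 96 h against 25 ± 2.09 CPM at 24 h (mean ± SD, n = 3 each). GADD45A measured 4.12 ± 0.592 CPM at 96 h against 17.6 ± 2.28 CPM at 24 h in GSK591 cells, and 6.23 ± 0.617 CPM against 21.4 ± 1.67 CPM in vehicle cells. In both genes the gap between the times was wider than any gap between GSK591 and vehicle. The 96 h over 24 h ratios in vehicle cells were 0.257 for BBC3, 0.292 for GADD45A, 0.363 for TRIAP1, 0.379 for SESN1, 0.399 for FAS, 0.429 for AEN and 0.449 for PLK3. All 7 kept a vehicle ratio under 0.5 when any 1 vehicle library was left out. Counted by library, 13 of the 27 genes had every 96 h vehicle library below every 24 h one (48.1%, beside 30.3% of all genes), and 4 had them above (14.8%, beside 30.8%). In the GSK591 arm TP53INP1 and SPATA18 had ratios over 2 (2.44 and 2.28), 7.41% of the 27 beside 8.13% of all genes. None of the 27 exceeded 2 in the vehicle arm, beside 3.15% of all genes. Both shares of the 27 were thus low or close to those of the transcriptome.

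**Figure D3:**
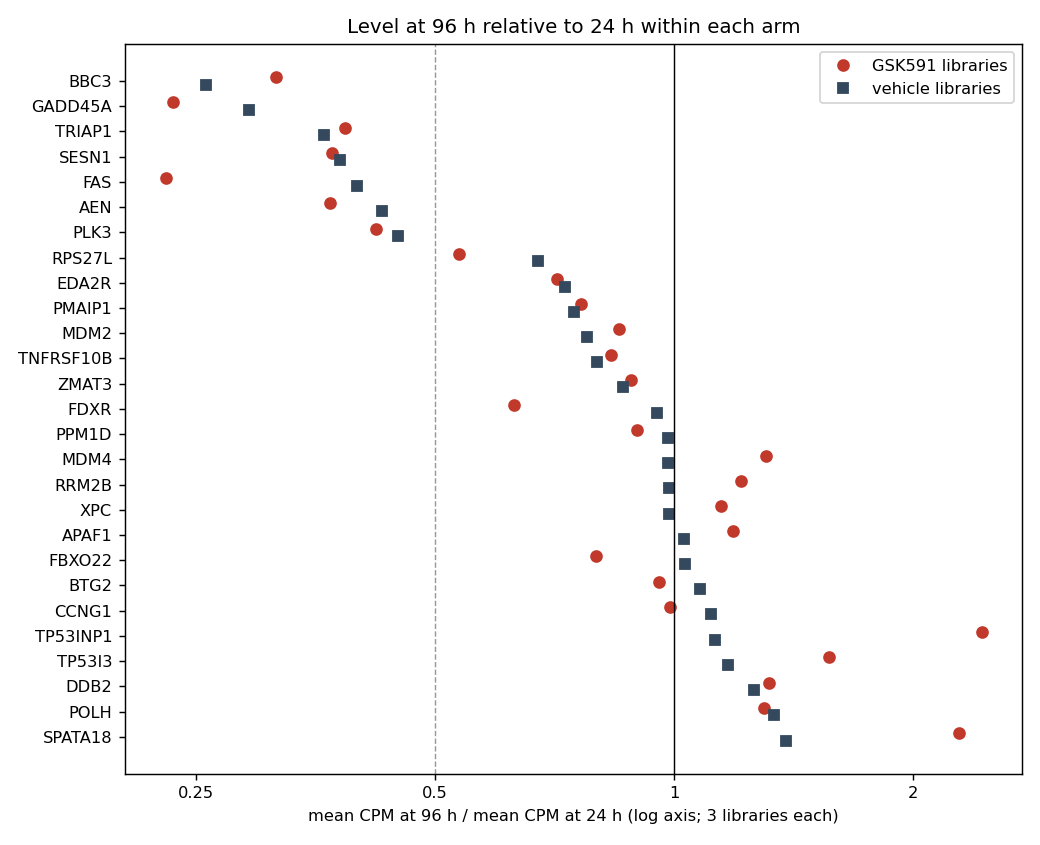
Mean CPM at 96 h divided by mean CPM at 24 h within GSK591 libraries (circles) and within vehicle libraries (squares) for the 27 tested genes, on a log axis (3 libraries a group, all 12 scaled together). The 7 genes from BBC3 to PLK3 lie left of the dashed line at 0.5 in both arms, and TP53INP1, SPATA18, FDXR and FAS show the widest distance between circle and square.

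Outside the 30 genes, 2 lists place them in the pathway. Of 53 other p53 targets, 44 were tested at 96 h, where 10 rose and 11 fell (47.7%, beside 40.2% of all genes), and 47 at 24 h, where 5 rose and 3 fell (17%, beside 14.7%). Without vehicle library 2 or GSK591 library 1 the 24 h number called was 2 or 1. CDKN1A, the p21 inhibitor of cyclin-dependent kinases and the best known target of p53, fell at 96 h. It measured 27.2, 33.2 and 29.2 CPM in GSK591 cells and 45.7, 44.3 and 44.9 CPM in vehicle cells (log2 fold change -0.59 ± 0.08, adjusted p = 0.00122, called in 15 of 15 alternatives). At 24 h CDKN1A had -0.13 ± 0.06 and was not called (adjusted p = 0.166, but 0.00954 without vehicle library 1 and 0.00503 without GSK591 library 2). With all libraries scaled together, CDKN1A stood at 44.0 CPM in vehicle cells at 96 h against 152 CPM at 24 h. In vehicle cells, 4 of the 47 other targets in that fit (8.51%, beside 0.6% of all genes) had a 96 h mean under 0.5 of the 24 h mean. Besides CDKN1A these were CSF1, TNFRSF10D and TSKU, all under 0.5 CPM. ATF3 had a ratio of 2.20, and the median ratio of the 47 was 0.92. TRIM22, an interferon-inducible ubiquitin ligase, rose at 96 h, with 339.9, 317 and 325 CPM in GSK591 cells and 216, 201 and 208 CPM in vehicle cells (log2 fold change 0.65 ± 0.05, adjusted p = 0.000308). ANKRA2, an ankyrin repeat protein, also rose at 96 h (log2 fold change 0.54 ± 0.06, adjusted p = 0.000827). BAX, the pore-forming protein of apoptosis, had 0.19 ± 0.06 at 96 h (adjusted p = 0.0288) and 0.09 ± 0.03 at 24 h (adjusted p = 0.0222). Each BAX call was lost without some libraries: at 96 h with 0.0537 to 0.105 without any 1 vehicle library, GSK591 library 1 or GSK591 library 3, and at 24 h with 0.0767 to 0.112 without vehicle library 1, vehicle library 2 or GSK591 library 1. At 24 h the smallest p-values of this list belonged to E2F7, a repressor of E2F targets (-0.27 ± 0.05, adjusted p = 0.00113), to PCNA, the sliding clamp of replication (-0.12 ± 0.03, adjusted p = 0.0062, 0.056 without GSK591 library 1), and to NADSYN1, an enzyme of NAD synthesis (-0.11 ± 0.03, adjusted p = 0.0196). NADSYN1 lost its 24 h call without vehicle library 2 (0.079), vehicle library 3 (0.0998), GSK591 library 1 (0.0779) or GSK591 library 3 (0.0549). These genes were also lower at 96 h by edgeR's quasi-likelihood test: E2F7 by -1.37 ± 0.28 (adjusted p = 0.00617) and PCNA by -0.81 ± 0.12 (0.00188). NADSYN1 had -0.24 ± 0.06 there (0.016), a call lost without GSK591 library 1 or 3.

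Of 33 regulators of the pathway, 7 rose and 8 fell at 96 h (45.5%, beside 40.2% of all genes), and 6 rose and 1 fell at 24 h (21.2%, beside 14.7%). Without vehicle library 2, GSK591 library 1 or GSK591 library 3 the 24 h number called was 4, 2 or 3. ATM, the kinase that signals double-strand breaks to p53, had the largest change named in this list, at 699.9, 806 and 564 CPM in GSK591 cells and 367, 305 and 366 CPM in vehicle cells at 96 h (log2 fold change 1.0 ± 0.13, adjusted p = 0.0011). At 24 h its effect was 0.12 ± 0.03 (adjusted p = 0.0057). CHEK2, a kinase downstream of ATM, fell at 96 h (-0.54 ± 0.08, adjusted p = 0.00176), and SETD7, a lysine methyltransferase that can act on p53, rose (0.40 ± 0.06, adjusted p = 0.00195). CHEK2 also fell at 24 h (-0.15 ± 0.04, adjusted p = 0.00905, but 0.0767 without GSK591 library 1). USP7, the deubiquitinase that stabilises MDM2 and p53, rose at 24 h (0.12 ± 0.02, adjusted p = 0.00113). It also rose at 96 h by edgeR's quasi-likelihood test (0.31 ± 0.06, adjusted p = 0.00631).

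TP73 and TP63, transcription factors that bind the same kind of site, were named after their values were seen. TP73 measured 10.7, 9.39 and 9.92 CPM in GSK591 cells and 6.73, 5.94 and 7.12 CPM in vehicle cells at 96 h, without overlap (log2 fold change 0.60 ± 0.10, adjusted p = 0.00299). TP63 measured 17.6, 23.8 and 18.3 CPM in GSK591 cells and 25, 29.3 and 25.7 CPM in vehicle cells, also without overlap (log2 fold change -0.42 ± 0.12, adjusted p = 0.0214). The TP63 call was lost without vehicle library 2 (0.086), GSK591 library 1 (0.066) or GSK591 library 3 (0.0805). The TP73 call held in 15 of 15 alternatives. At 24 h neither was called (adjusted p = 0.868 for TP73 and 0.763 for TP63).

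**Figure D4:**
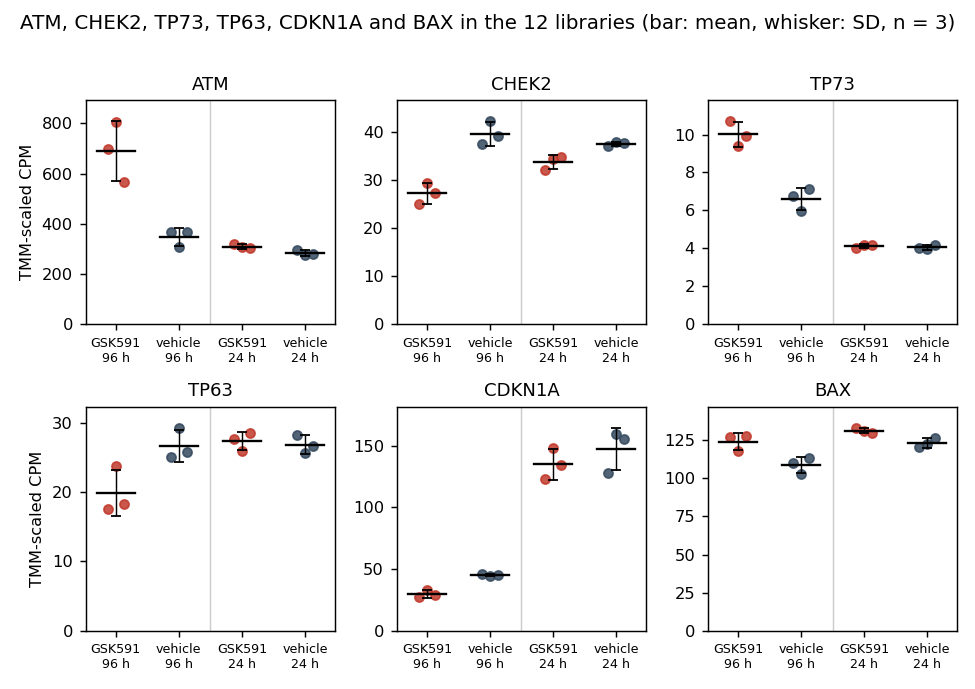
TMM-scaled CPM of ATM, CHEK2, TP73, TP63, CDKN1A and BAX in each library (points), with group means (bars) and SD (whiskers, n = 3), GSK591 left of vehicle at 96 h and then at 24 h. CPM are scaled within each time. At 96 h ATM, TP73 and BAX lie higher and CHEK2, TP63 and CDKN1A lie lower in all treated libraries. CDKN1A lies far lower at 96 h than at 24 h in both arms, as it also does with all 12 libraries scaled together.

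The authors' deposited tables of fold changes gave much the same list. In the authors' deposited table for 96 h, 4 of the 30 genes rose and 6 fell past an adjusted p of 0.05, and all 10 of these were also called here in that direction. There ZMAT3 had an adjusted p of 0.0568 in the authors' deposited table. For 24 h, the authors' deposited table had 2 that rose and 7 that fell, of which 8 were called here in that direction. The share of all genes called in the authors' deposited tables was not counted, so these numbers are not set against the transcriptome. The authors' deposited table gave MDM2 a log2 fold change of 0.10 (adjusted p = 0.133) and CCNG1 one of 0.08 (adjusted p = 0.105) at 24 h, both past the threshold here and not there. It called FBXO22 at 24 h, with -0.12 (adjusted p = 0.0431) in the authors' deposited table.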

How the data were processed

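Messenger RNA of 12 SUDHL6 libraries was measured, 3 for each of 4 groups. Raw read counts for each gene symbol were deposited by the authors in a table per time. They also deposited tables of log2 fold changes, log2 CPM, p-values and adjusted p-values, per the file headers. STAR, HTSeq, edgeR and hg19 (GRCh37) are named per the submitters' processing notes. The annotation, the strand setting and tool versions were not given in the sources used here. Hence reads of overlapping or antisense genes and of near-identical copies cannot be told apart. No genome of that build was used, so gene coordinates come from RefSeq (GRCh38.p14) promoter windows only.

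All 12 count columns matched a sample by name. No pair of replicates agreed within sampling noise (chi-square per degree of freedom 2.20 to 39.8), so all were kept. Each time was fitted on its own 6 libraries with filterByExpr, TMM scaling and the quasi-likelihood test of edgeR 4.0.16 in R 4.3.3. Tests were two-sided, p-values were adjusted by Benjamini and Hochberg's method over all genes tested, and the threshold was 0.05. "Called", "rose" and "fell" mean past it. The standard error is the size of the log2 fold change divided by the square root of F, and intervals are 95%. The difference between the times was tested in 1 fit of all 12 libraries. CPM are scaled within a time, except where 96 h and 24 h levels are compared, and were not divided by gene length, so levels of different genes are not compared.

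The genes and lists were chosen with earlier results of these data known. Genes named were MDM2, MDM4, those past the threshold at a time or in the difference, the others by role, CDKN1A and BAX, and the 3 smallest p-values of each other list at each time. A gene that the rule also names is not reported here. Alternatives were library size alone, RLE factors, DESeq2 1.42.0, no filter, at least 5 CPM in 3 libraries, a replicate block, all 12 libraries in 1 fit, a thinned deep library, both 96 h libraries numbered 2 left out, and each library left out. The comparison of 96 h with 24 h levels, and its alternatives, were chosen after seeing the data.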

Additional observations from a re-analysis of the deposited data

Results flagged for a closer look

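The effect of GSK591 differed between the times for 8 of the 27 genes, by the interaction in edgeR's quasi-likelihood test over all 12 libraries. On the log2 scale, the 96 h effect minus the 24 h effect was 1.11 for TP53INP1 (adjusted p = 0.0189), 0.41 for MDM4 (0.0332), 0.30 for RRM2B (0.0292) and 0.22 for XPC (0.00801). It was -0.73 for FAS (0.0378), -0.59 for FDXR (0.00763), -0.37 for FBXO22 (0.0123) and -0.32 for RPS27L (0.0215). Within each time the groups separated completely at 96 h for all 8 genes, and at 24 h for MDM4, XPC and FBXO22. Over all genes tested, the groups did not overlap for 54.9% at 96 h and 31.8% at 24 h. The 8 genes were picked by a test on these same libraries, so their separation is no further support.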

How the results depend on the processing

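Over single genes, 376 of 401 alternative fits at 96 h, 296 of 346 at 24 h and 485 of 537 of the difference kept the side of the threshold, and no called value reversed. Calls were lost in 9 fits at 96 h, 40 at 24 h and 29 of the difference. They were gained in 16, 10 and 23, and estimates that were not called changed sign in 9, 20 and 20. At 96 h, 5 genes rose and 6 fell. Each library left out in turn gave 4 to 8 and 5 to 7, with 3438 (without GSK591 replicate 1) to 7485 of all genes called in place of 5437, and 3507 without vehicle replicate 2. Without both libraries numbered 2, 10 rose and 8201 of all genes were called. At 24 h, 4 rose and 6 fell. Leaving out libraries gave 2 to 7 and 1 to 6, with 1 to 11 of the other p53 targets in place of 8, 2 to 8 of the regulators in place of 7, and 980 to 2208 of all genes in place of 1941 (980 without GSK591 replicate 1, 1041 without GSK591 replicate 3, 1068 without vehicle replicate 2). Library size alone gave 2 that rose and split all genes into 565 higher and 1220 lower, against 980 and 961. DESeq2 gave 3 that fell. With all 12 libraries in 1 edgeR fit, which takes the spread from both times, 0 rose, 0 fell, and 0 other targets, 0 regulators and 29 of all genes were called at 24 h. In that fit 9 of the 27 genes had an unadjusted p under 0.05, a share that was not counted over all genes. DESeq2 on the 24 h libraries called 7 of the 27, beside 1440 of all genes. For the difference, 4 were more positive and 4 more negative. Leaving out libraries gave 1 to 8 and 2 to 5, with 1991 to 5712 of all genes in place of 3298 (1991 without 24 h GSK591 replicate 2, 2034 without 24 h vehicle replicate 3, 5712 without 96 h GSK591 replicate 2). Without both libraries numbered 2, 8 were more positive and 6022 of all genes were called. The number of genes with a vehicle ratio under 0.5 stayed at 7. The scalings moved the median of all genes by less than 0.1 on the log2 scale. The cause of these shifts was not tested.

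Same-numbered libraries deviated together with r of 0.47, 0.32 and 0.03 at 96 h and 0.03, 0.26 and 0.06 at 24 h. Between differently numbered libraries, r ran from -0.45 to 0.27 at 96 h and from -0.15 to 0.09 at 24 h. The labels do not say whether the numbers pair libraries, and the main fits did not pair them. With a replicate block, 7 rose and 7 fell at 96 h, with 6293 of all genes called. At 24 h, 6 rose and 6 fell in that fit, with 14 other targets and 2809 of all genes called. In the difference, 5 were more positive and 7 more negative, with 4322 of all genes called in place of 3298.

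Genes under 1 CPM such as FAS were limited by depth, and GDF15, PHLDA3 and PLK2 could not be tested. With 3 libraries a group the power is small, and a p that misses the threshold does not show that a gene did not change.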
